A study of Mus musculus with 18 samples.

Results

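The comparison set 3 libraries of activated spleen cells labelled Treg from Foxp3 YFP/cre Ebi3 -/- mice, called KO here, against 3 libraries with the same cell label from Foxp3 YFP/cre mice that carry Ebi3, called WT. These were 6 of the 18 libraries of the series, taken by their labels, and all genes with enough counts were described in a fit to these 6 alone. Both genotypes carry the YFP/cre allele of Foxp3, which encodes the defining transcription factor of regulatory T cells, so that allele does not separate them. Per the labels' protocols, dissociated spleens were stained and sorted by flow cytometry, and the cells were then activated in culture for 72 h. The culture held IL-2 at 10 ng/ml, anti-CD28 at 2 µg/ml and, fixed to the plate, anti-CD3 at 2 µg/ml. Libraries were made from 500 ng of total RNA with a 3' tag kit that reads the ends of polyadenylated transcripts, with unique molecular identifiers. No source used here gives the age or sex of the animals, the gates of the sort or whether replicates came from separate mice or cultures, so p-values measure the spread between these libraries, which may be technical.

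Ebi3 encodes a secreted protein without a membrane anchor that resembles a soluble cytokine receptor. It pairs with the IL-27 p28 chain, the product of Il27, to form IL-27, and with the IL-12 p35 chain, the product of Il12a, to form IL-35. IL-27 binds the receptor chains encoded by Il27ra and Il6st and signals through Janus kinases to STAT factors, STAT3 among them. In mice, IL-35 was described as a product of regulatory T cells that restrains other T cells, and IL-27 can both raise interferon-type genes and IL-10 in T cells and restrain Th17 cells. The comparison addresses which transcripts of cells with the Treg label depend on Ebi3 after activation in culture.

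Total counts were 881834, 1085238 and 865879 in KO replicates 1, 2 and 3, and 841892, 882659 and 1089003 in WT replicates 1, 2 and 3. Values below are CPM, the count of a gene relative to the TMM-scaled total of its library, and are given in the order of the replicate numbers, which name the libraries and do not pair them. A floor of 3 counts in a library corresponded to 2.81 to 3.77 CPM and covers counting error only. The differences between pairs of libraries were measured as a chi-square per gene over genes with at least 20 summed counts, which is 1 where a pair differs by counting noise alone. The closest of the 15 pairs was KO 2 with WT 3, at 0.869, a pair that crosses the genotype labels. KO 1 and KO 3 (0.914) and WT 1 and WT 2 (0.923) also differed by less than the sampling noise, so either pair entered the means as 1 sample, with n = 2 per genotype. In all, 4 of the 9 pairs across the labels and 2 of the 6 pairs within a label lay within sampling noise. The farthest pair, KO 2 with WT 1, reached 1.61, and pairs within the CD4 and CD8 groups of the series stood at 1.502 to 5.301. The CD4 and CD8 libraries were deeper, at 1358671 to 2255950 counts, and a chi-square per gene grows with depth for the same spread, so the values are not comparable between the labels. The WT and KO libraries labelled Treg may therefore not be independent samples, and no count of cultures can be read from them.

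**Figure D1:**
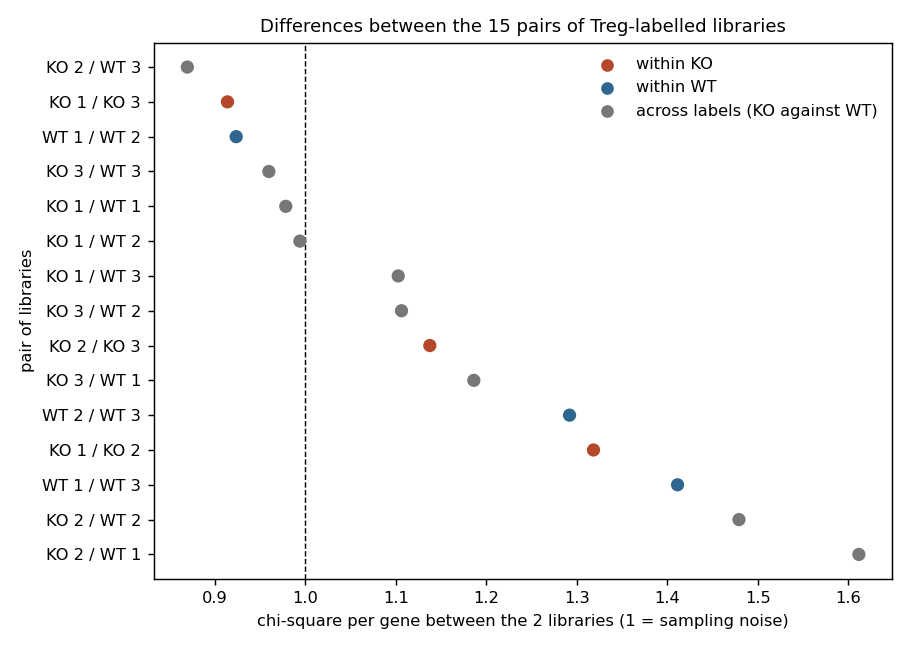
Chi-square per gene (x axis, no unit; the dashed line at 1 marks sampling noise) for each of the 15 pairs of Treg-labelled libraries, coloured by whether the pair is within KO, within WT or across the labels. The pair with the lowest value, KO 2 with WT 3 at 0.869, crosses the labels, and pairs of each kind lie on both sides of 1.

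The Treg label was checked against defining markers. Foxp3 had 0 or 1 counts in each of the 6 libraries, with 1.19, 0 and 0 CPM in KO libraries and 1.26, 0 and 0.936 CPM in WT libraries. Il2ra, the high-affinity IL-2 receptor chain that regulatory and activated T cells carry, stood at 149.7, 115 and 116 CPM in KO libraries and 184, 112 and 83.3 CPM in WT libraries. On the scale of all 18 libraries Il2ra spanned 85.1 to 189 CPM under the Treg label, 361 to 763 CPM under the CD4 label and 606 to 931 CPM under the CD8 label. On that scale Ikzf2, another Treg marker, spanned 34.4 to 71.7 CPM under the Treg label. It spanned 13.1 to 25.4 CPM under CD4 and 22.04 to 73.3 CPM under CD8, so it lay above CD4 and overlapped CD8. The markers Ctla4 and Tnfrsf18 were lower under the Treg label. Ctla4 spanned 15.98 to 25.5 CPM there, 33.5 to 83.96 CPM under CD4 and 29.7 to 70.8 CPM under CD8. Tnfrsf18 spanned 50.4 to 105 CPM, 214 to 347 CPM and 194 to 304 CPM in that order. The libraries also held transcripts of several lineages at once. Cd4 was counted at 46.3, 66.4 and 34.8 CPM in KO libraries and 35.2, 33.6 and 58.99 CPM in WT libraries. Cd8a, a co-receptor chain of cytotoxic T cells, was at 40.4, 24.3 and 42.03 CPM in KO libraries and 42.8, 45.6 and 29.03 CPM in WT libraries. Scaled over all 18 libraries, Cd4 spanned 34.4 to 67.98 CPM under the Treg label. It spanned 100.1 to 157 CPM under CD4 and 0 to 0.509 CPM under CD8. Cd8a spanned 24.9 to 46.7 CPM under the Treg label, 0 to 1.69 CPM under CD4 and 143 to 244 CPM under CD8. Only the Treg label thus held both at these levels. The immunoglobulin genes of B cells were abundant, with Igkc at 3564, 3527 and 3696 CPM in KO libraries and 3478, 3635 and 3618 CPM in WT libraries. On the scale of all 18 libraries Igkc spanned 3582 to 3779 CPM under the Treg label, 2073 to 4087 CPM under the CD4 label and 1838 to 3628 CPM under the CD8 label, so it was abundant under each. Because the Foxp3 transcript was at or near 0, the label Treg is used here only as the name of these 6 libraries, and what other cells add to any value below was not tested.

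Ebi3, the targeted gene, lies on chromosome 17 at 55952640 to 55957022 in GRCm38 (ENSMUSG00000003206). It had counts in all 6 libraries, and the KO and WT libraries overlapped. It stood at 28.5, 33.7 and 24.02 CPM in KO libraries and 33.97, 25.2 and 39.3 CPM in WT libraries, which rests on 20 to 42 counts per library. The mean was 29.98 ± 5.25 CPM in KO and 34.5 ± 6.89 CPM in WT (SD, n = 2 each). The highest KO library lay above the lowest WT library, and the lowest value of all was a KO library. The log2 fold change of KO over WT was -0.19 (SE 0.21, 95% interval -0.63 to 0.24, edgeR quasi-likelihood test, unadjusted p = 0.379, adjusted p = 0.999). It moved between -0.35 and -0.015 when a library was left out, the value nearest to 0 being that without WT 3. Tags of this kit are taken near the transcript's 3' end, which for Ebi3 is the last of 5 exons (55956622 to 55957022), and no source used here gives the deleted part of the gene. Tags outside the deleted part would check nothing about the genotype labels, so KO and WT mean the libraries so labelled. Under the CD4 label, scaled over all 18 libraries, Ebi3 was at 20.6, 26.1 and 22.5 CPM in KO and 60.5, 38.7 and 39.4 CPM in WT libraries, without overlap. Under the CD8 label it was at 27.6, 24.2 and 34.01 CPM in KO and 29.1, 28.01 and 29.7 CPM in WT libraries, with overlap. What these levels say of the deleted part was not tested.

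No gene passed the threshold between the KO and WT libraries. Of 9068 genes tested, 0 were higher and 0 were lower in KO at an adjusted p under 0.05 by edgeR (0% of the genes tested in either direction), and the lowest adjusted p was 0.999. DESeq2 and limma-voom on the same 6 libraries also gave 0 genes. At an unadjusted p under 0.05 there were 168 genes higher (1.85%) and 197 lower (2.17%), in all 365, where 5% of the genes tested is 453. DESeq2 gave 54 at that level and limma-voom 380. The 3 KO libraries lay above the 3 WT libraries for 407 genes (4.49%) and below them for 417 genes (4.6%). With labels placed at random, such a separation in either direction has a probability of 0.1 for a gene, and 9.09% of the genes showed it. The genes tested held 96.2% of all counts.

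The fold changes were small and centred on 0. The median absolute log2 fold change was 0.115, and the range from the 5th to the 95th percentile ran between -0.34 and 0.34. A missed threshold does not show equality, so the 95% intervals were used to say which sizes the data allow. The interval lay within 2-fold in both directions for 8599 genes (94.8%), and within 1.5-fold for 5484 (60.5%). Among the 3256 genes with a mean log2 CPM of at least 6, the interval lay within 2-fold for all 3256 and within 1.5-fold for 3182, and the largest absolute log2 fold change was 0.49. The spread between libraries beyond counting noise was low, with a biological coefficient of variation of 4.80% in the common fit. Only Slc25a28 and Zfp935 had an absolute log2 fold change over 1, and both are named here for that value. Slc25a28, a mitochondrial iron carrier, stood at 13.1, 7.49 and 8.405 CPM in KO libraries, against 25.2, 31.2 and 12.2 CPM in WT libraries (log2 fold change -1.20, edgeR unadjusted p = 0.00125, adjusted p = 0.999). Zfp935, a zinc finger gene, stood at 11.9, 12.2 and 12.01 CPM in KO libraries, against 2.52, 6.001 and 8.43 CPM in WT libraries (log2 fold change 1.003). Its value in WT 1 lay under the floor of 3 counts, which is 3.77 CPM in that library. Both genes were also among those of largest loading on the first principal component described below (Zfp935 0.042, Slc25a28 -0.051). That axis did not separate the genotypes, and its part in these fold changes was not tested. The intervals above hold for the libraries as labelled and treat each library as a separate sample. Their spread may be technical, so they do not bound the genotype effect between animals or cultures.

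**Figure D2:**
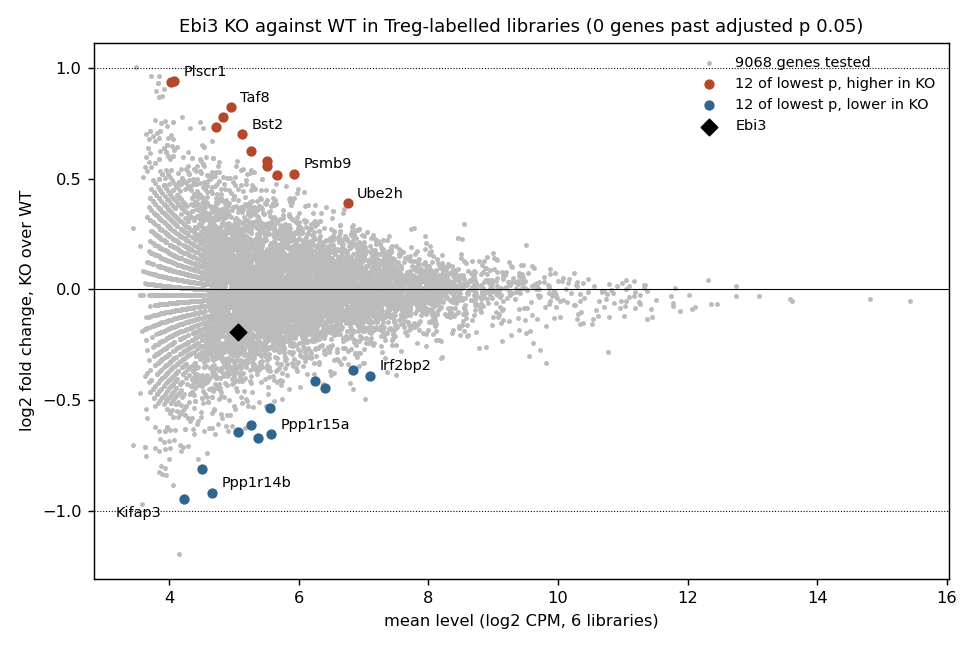
Log2 fold change of KO over WT (y axis) against mean log2 CPM over the 6 libraries (x axis) for the 9068 genes tested; coloured points are the 12 genes of lowest p in each direction, the diamond is Ebi3, and dotted lines mark 2-fold. The cloud narrows as the level rises, and no gene passes an adjusted p of 0.05.

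The 12 genes of lowest p above 0 were taken by rule from genes with a mean log2 CPM of at least 4 whose KO and WT libraries did not overlap, so the separation of their libraries is part of the choice. None passed the adjusted threshold (adjusted p = 0.999 for each by edgeR). Of the 12, Bst2, Psmb9 and Plscr1 are known as genes that interferon induces. Bst2, which encodes tetherin, a protein that holds budding virus at the cell surface, stood at 46.3, 38.4 and 37.2 CPM in KO libraries, against 23.9, 20.4 and 29.03 CPM in WT libraries (log2 fold change 0.70, SE 0.21, unadjusted p = 0.00171). Psmb9, a catalytic subunit of the immunoproteasome, stood at 62.97, 72.99 and 70.8 CPM in KO libraries, against 52.8, 39.6 and 51.5 CPM in WT libraries (log2 fold change 0.52, SE 0.16, unadjusted p = 0.00202). Plscr1, a phospholipid scramblase, stood at 24.9, 14.97 and 19.2 CPM in KO libraries, against 11.3, 9.601 and 9.36 CPM in WT libraries (log2 fold change 0.94, SE 0.31). Its WT libraries rest on 9, 8 and 10 counts.

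Taf8, a subunit of the general transcription factor TFIID on chromosome 17, had the lowest p of the 12, at 35.6, 29.01 and 48.03 CPM in KO libraries, against 16.4, 27.6 and 18.7 CPM in WT libraries (log2 fold change 0.82, SE 0.24, unadjusted p = 0.00143). Scnm1, a splicing factor, was at 17.8, 19.6 and 18.01 CPM in KO libraries, against 8.81, 10.8 and 9.36 CPM in WT libraries, a log2 fold change of 0.94. Fem1b, a substrate receptor of a cullin ubiquitin ligase, was at 48.7, 54.3 and 52.8 CPM in KO libraries, against 32.7, 37.2 and 34.6 CPM in WT libraries, with a log2 fold change of 0.58. In both genes the WT libraries were close to each other and clear of the KO libraries. Ube2h, a ubiquitin-conjugating enzyme, was at 126, 124 and 109 CPM in KO libraries, against 86.8, 87.6 and 99.3 CPM in WT libraries (log2 fold change 0.39). G2e3, a ubiquitin ligase, was at 55.8, 64.6 and 48.03 CPM in KO libraries, against 41.5, 40.8 and 37.5 CPM in WT libraries (log2 fold change 0.52). Oaz2, an antizyme that directs ornithine decarboxylase to the proteasome, was at 38.02, 43.98 and 50.4 CPM in KO libraries, against 27.7, 25.2 and 31.8 CPM in WT libraries (log2 fold change 0.62). Their gaps between the highest WT and the lowest KO library were narrow.

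The remaining 3 are of mixed roles. Abcf2, an ATPase of the ABC family without a membrane part, was at 32.1, 37.4 and 28.8 CPM in KO libraries, against 16.4, 28.8 and 14.04 CPM in WT libraries, and its highest WT library touched the lowest KO library. Plxnc1, the plexin that binds semaphorin 7A, was at 52.3, 45.9 and 57.6 CPM in KO libraries, against 32.7, 36.01 and 35.6 CPM in WT libraries. Stk16, a serine/threonine kinase, was at 26.1, 33.7 and 30.02 CPM in KO libraries, against 17.6, 19.2 and 17.8 CPM in WT libraries. The log2 fold changes were 0.78 for Abcf2, 0.56 for Plxnc1 and 0.73 for Stk16. Across the leave-one-out fits the 12 genes kept a positive sign, with log2 fold changes between 0.35 and 1.13, which the choice of separated genes favours.

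On the lower side, the 12 genes of lowest p included a pair of genes that act on protein phosphatase 1. Ppp1r14b, an inhibitor of that phosphatase, stood at 10.7, 19.6 and 16.8 CPM in KO libraries, against 32.7, 36.01 and 24.3 CPM in WT libraries (log2 fold change -0.92, SE 0.26, edgeR unadjusted p = 0.00102, adjusted p = 0.999). Ppp1r15a, also called GADD34, guides the phosphatase to eIF2 alpha and so ends the block of translation under stress. It stood at 39.2, 33.7 and 33.6 CPM in KO libraries, against 66.7, 61.2 and 43.1 CPM in WT libraries (log2 fold change -0.65, SE 0.19, unadjusted p = 0.00127). WT 3 was the WT library nearest to the KO libraries in both genes. Irf2bp2, a partner of the repressor IRF2, showed the same order, at 129.5, 115 and 107 CPM in KO libraries, against 161, 172 and 132 CPM in WT libraries (log2 fold change -0.39, SE 0.12, unadjusted p = 0.00204). With WT 3 left out, the log2 fold change was -0.85 for Ppp1r15a and -0.51 for Irf2bp2. Leaving out the WT library nearest to the KO libraries enlarges the difference, and the WT libraries that remain count as 1 sample.

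Cyth1, an exchange factor for ARF GTPases, was at 27.3, 32.8 and 30.02 CPM in KO libraries, against 37.7, 57.6 and 48.7 CPM in WT libraries (log2 fold change -0.67). Fgd3, an exchange factor for CDC42, was at 34.5, 39.3 and 36.02 CPM in KO libraries, against 55.4, 57.6 and 48.7 CPM in WT libraries (log2 fold change -0.54). Stk11, the kinase LKB1 that activates AMP-activated kinase, was at 62.97, 64.6 and 62.4 CPM in KO libraries, against 76.7, 90.01 and 86.1 CPM in WT libraries (log2 fold change -0.41). The KO libraries of Stk11 lay close to each other. Kifap3, an adaptor of the kinesin-2 motor, was at 11.9, 10.3 and 12.01 CPM in KO libraries, against 20.1, 20.4 and 24.3 CPM in WT libraries (log2 fold change -0.94). Poc1b, a centriole protein, was at 24.9, 23.4 and 25.2 CPM in KO libraries, against 45.3, 28.8 and 40.3 CPM in WT libraries (log2 fold change -0.64).

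Of the other genes on the lower side, Lmo4 and Tcea1 act on transcription and Hibadh and Sfxn2 in mitochondria. Lmo4, a LIM-only adaptor of transcription complexes, was at 90.3, 103 and 101 CPM in KO libraries, against 142, 129.6 and 112 CPM in WT libraries, a log2 fold change of -0.37. Tcea1, the elongation factor TFIIS, was at 70.1, 61.8 and 80.5 CPM in KO libraries, against 89.3, 108 and 89.9 CPM in WT libraries, a log2 fold change of -0.44. In both, every KO library lay below the lowest WT library. Hibadh, an enzyme of valine breakdown, was at 27.3, 32.8 and 25.2 CPM in KO libraries, against 36.5, 54.01 and 42.1 CPM in WT libraries, a log2 fold change of -0.61. Sfxn2, a sideroflexin of the mitochondrial membrane, was at 10.7, 17.8 and 15.6 CPM in KO libraries, against 21.4, 24.003 and 31.8 CPM in WT libraries, a log2 fold change of -0.81. All 12 kept a negative sign in the leave-one-out fits, as their choice favours.

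**Figure D3:**
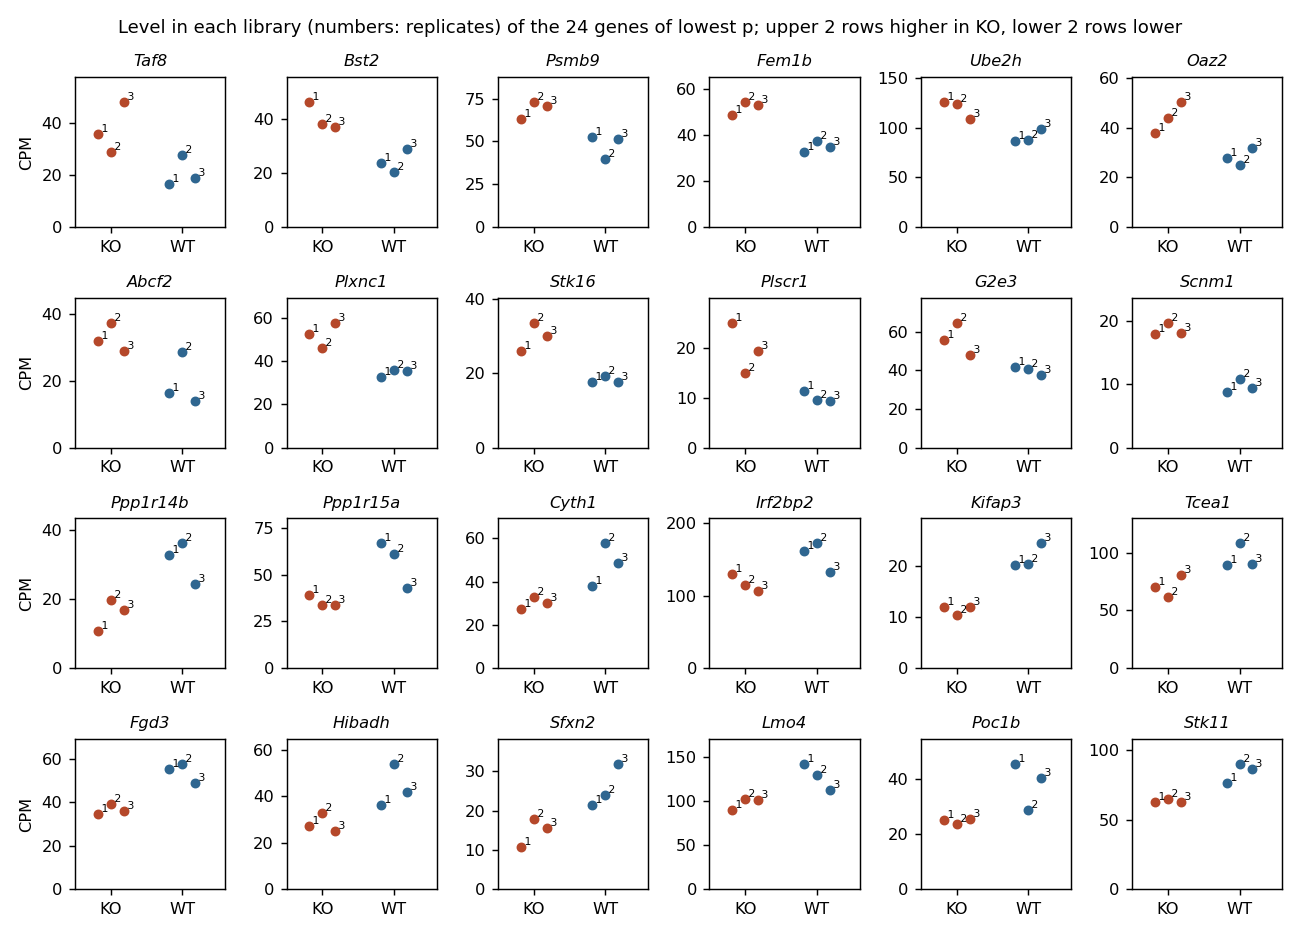
Level in CPM (y axis, from 0) in each KO (left) and WT (right) library of the 24 genes chosen by lowest p; small numbers are the replicates. The upper 2 rows hold genes higher in KO and the lower 2 rows genes lower in KO, and in none does a KO library cross a WT library, which is how they were chosen.

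Genes were then read by role, in 38 lists that cover the EBI3 pathway, T cell states, metabolism and other cell types. These lists hold 830 different genes, of which 556 were tested. No list held a gene past the threshold in either direction. The median log2 fold change of the 33 lists with at least 5 tested genes ran from -0.28 for Th17 genes to 0.16 for T cell receptor and CD3 genes, beside -0.00017 for all 9068 genes. From each list the members named are those of the highest level, unless said otherwise.

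Among the ligand subunits related to Ebi3, most were too low to test. The partner chain Il27 had 0 counts in all 6 libraries. Il12a, which encodes the chain that joins EBI3 in IL-35, had at most 6 counts in a library and stood at 5.94, 3.74 and 3.602 CPM in KO libraries and 3.77, 1.2 and 5.62 CPM in WT libraries. Its KO and WT ranges overlapped, and it was not tested. Clcf1, a cytokine of the IL-6 family, was tested and stood at 36.8, 46.8 and 40.8 CPM in KO libraries and 41.5, 42.01 and 34.6 CPM in WT libraries (log2 fold change 0.11, SE 0.18). Of the receptor chains, Il6st, the shared signal chain gp130, was at 66.5, 103 and 118 CPM in KO libraries and 80.5, 63.6 and 113 CPM in WT libraries, and Il6ra, the IL-6 receptor, was at 52.3, 84.2 and 62.4 CPM in KO libraries and 37.7, 70.8 and 85.2 CPM in WT libraries. Both overlapped between the genotypes. Il12rb1, a receptor chain for IL-12 and IL-23, was at 19.01, 12.2 and 16.8 CPM in KO libraries, against 8.81, 12.002 and 9.36 CPM in WT libraries without overlap (log2 fold change 0.64, SE 0.32, unadjusted p = 0.0645, adjusted p = 0.999 by edgeR). Il27ra, the specific IL-27 receptor chain, and Il12rb2 reached at most 10 and 13 counts in a library and were not tested.

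The Janus kinases, STAT factors and their SOCS inhibitors were all tested, 17 of 17, with 11 above 0 and 6 below and a median log2 fold change of 0.064. Jak1, the kinase bound to gp130, was at 664, 759 and 711 CPM in KO libraries and 605, 639.7 and 729 CPM in WT libraries, and Stat3 was at 288, 278 and 235 CPM in KO libraries and 296, 300.0 and 274 CPM in WT libraries. The inhibitors Socs3 and Socs2 pointed in opposite directions. Socs3, chosen after its values were seen, was at 19.01, 21.5 and 25.2 CPM in KO libraries, against 8.81, 16.8 and 16.9 CPM in WT libraries (log2 fold change 0.59, unadjusted p = 0.0421 by edgeR). Socs2, chosen likewise, was at 24.9, 11.2 and 21.6 CPM in KO libraries, against 31.5, 19.2 and 30.9 CPM in WT libraries (log2 fold change -0.56, unadjusted p = 0.0446 by edgeR).

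Targets of IL-27 and STAT3 gave a median log2 fold change of -0.12 over the 14 of 22 genes tested, with 4 above 0 and 10 below. Pim1, a survival kinase that STAT factors induce, was at 564, 503 and 508 CPM in KO libraries and 616, 609.7 and 528 CPM in WT libraries (log2 fold change -0.15, SE 0.076). Ly6a, the surface protein Sca-1, was at 219, 225 and 210.1 CPM in KO libraries and 262, 212 and 249 CPM in WT libraries. Il21r, the receptor for IL-21, was at 204, 212 and 237 CPM in KO libraries and 225, 215 and 190.1 CPM in WT libraries. The genotypes overlapped in all 3 genes. Il10, Lag3, Tigit and Havcr2, which encode the suppressive cytokine and inhibitory receptors linked to IL-27, reached at most 8, 2, 2 and 1 counts in a library, and a difference in them was not detectable at this depth.

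Interferon-stimulated genes had a median log2 fold change of 0.11, with 22 of 32 tested genes above 0 and 10 below. Of the 32, 3 were higher at an unadjusted p under 0.05, beside 1.85% of all genes, and 4 had KO libraries entirely above WT libraries, beside 4.49%. The abundant members showed little difference. Ifi203, a member of the interferon-inducible p200 family, was at 453, 522 and 478 CPM in KO libraries and 394, 475 and 488 CPM in WT libraries. Samhd1, a nucleotide hydrolase that restricts viruses, was at 435, 444 and 377 CPM in KO libraries and 418, 409 and 429.8 CPM in WT libraries. Irf1, an interferon-regulated transcription factor, was at 145, 197 and 172 CPM in KO libraries and 176, 184 and 190.1 CPM in WT libraries, and Trim30a was at 154, 170.3 and 197 CPM in KO libraries and 149.7, 150.0 and 179 CPM in WT libraries. Overlap of the genotypes was present in each. Iigp1, a GTPase that acts on parasite vacuoles and the third gene at that level beside Bst2 and Psmb9, was at 49.9, 47.7 and 48.03 CPM in KO libraries, against 27.7, 36.01 and 44.9 CPM in WT libraries (log2 fold change 0.39, unadjusted p = 0.0433, adjusted p = 0.999 by edgeR). The median rested on single libraries, at 0.28 without WT 3 and 0.0026 without KO 2. The classic responders Ifit1, Ifit3, Mx1 and Oas1a had at most 13, 4, 4 and 1 counts in a library and were not tested.

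Genes of Treg identity and suppression gave 15 of 22 tested genes above 0, 7 below and a median log2 fold change of 0.044, and 12 of the 34 listed could not be tested. Among the 12 were Foxp3, Ikzf4, Lrrc32, Itgae and Il10, several of which set regulatory T cells apart from other T cells. The tested members of highest level are shared with other lymphocytes. Satb1, a chromatin organizer of thymocytes and T cells, was at 424, 531 and 495 CPM in KO libraries and 433, 461 and 515 CPM in WT libraries. Bach2, a repressor that keeps T and B cells from effector fates, was at 201, 197 and 195 CPM in KO libraries and 175, 210.0 and 204 CPM in WT libraries. Cd83, an activation marker of lymphocytes and dendritic cells, was at 143, 141 and 136 CPM in KO libraries and 147, 151 and 138 CPM in WT libraries. Their log2 fold changes were 0.041, 0.0040 and -0.049 in that order. Genes of the IL-2 and STAT5 response, to which the IL-2 in the culture bears, split evenly, with 7 above 0 and 8 below and a median of -0.0046. Il2rg, the common gamma chain of IL-2 family receptors, was at 308, 324 and 321 CPM in KO libraries and 302, 326 and 299.6 CPM in WT libraries. Bcl2, a survival factor, was at 226, 274 and 234 CPM in KO libraries and 257, 210.0 and 254 CPM in WT libraries.

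The T cell receptor and CD3 list had the highest median of all lists, at 0.16, with 13 of 16 genes above 0 and 3 below and none at an unadjusted p under 0.05 in either direction. Trac, the constant part of the receptor alpha chain, was at 214, 240.5 and 213 CPM in KO libraries and 192, 169 and 220.0 CPM in WT libraries (log2 fold change 0.19, SE 0.10). Trbc2, a constant part of the beta chain, was at 375, 462 and 436 CPM in KO libraries and 364, 339.6 and 455 CPM in WT libraries. Lck, the kinase that starts receptor signals, was at 230.5, 282 and 244 CPM in KO libraries and 235, 216 and 281 CPM in WT libraries. In all 3, WT 3 lay above the other WT libraries and KO 2 above the other KO libraries. Leaving out WT 3 therefore enlarges the difference by choice, and the WT libraries that remain count as 1 sample. The values without WT 3 that follow are a description and cannot test a genotype difference. Without WT 3, all 16 were above 0, with a median of 0.26 and 7 higher at an unadjusted p under 0.05, beside 322 of 9378 genes (3.43%) in the same fit, and 0 passed the adjusted threshold by edgeR.

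Activation and costimulation genes were balanced, with 11 of 21 tested genes above 0, 10 below and a median log2 fold change of 0.019. Mif was at 550.1, 507 and 542 CPM in KO libraries and 574, 510.1 and 477 CPM in WT libraries. Nfatc1, a factor that calcium signals send to the nucleus, was at 428, 420.1 and 427 CPM in KO libraries and 391, 395 and 423 CPM in WT libraries. Slc3a2, the heavy chain of amino acid transporters that rise on activation, was at 280.4, 241 and 253 CPM in KO libraries and 272, 320.4 and 276 CPM in WT libraries. The ranges of the genotypes overlapped in each. Cd86, a costimulatory ligand of antigen-presenting cells, and Cd40lg, the helper signal to B cells, were named after their values were seen, since both had an unadjusted p under 0.05. Cd86 stood at 35.6, 42.1 and 40.8 CPM in KO libraries, against 31.5, 28.8 and 26.2 CPM in WT libraries (log2 fold change 0.47, unadjusted p = 0.0255, adjusted p = 0.999 by edgeR). Cd40lg stood at 17.8, 27.1 and 27.6 CPM in KO libraries, against 11.3, 14.4 and 21.5 CPM in WT libraries, with WT 3 above the lowest KO library. Among inhibitory receptors 10 of 18 could be tested (median -0.024), and Btla, a receptor that dampens lymphocyte activation, was at 132, 131 and 129.7 CPM in KO libraries and 138, 127 and 134 CPM in WT libraries.

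Genes of helper and cytotoxic fates were mostly near the limit of detection. In the Th17 list all 5 tested genes lay below 0, with a median log2 fold change of -0.28, and 0 were at an unadjusted p under 0.05. Batf, a factor that opens chromatin at Th17 genes and acts in other activated T cells, was at 29.7, 34.6 and 24.02 CPM in KO libraries, against 37.7, 37.2 and 35.6 CPM in WT libraries. Ccr6, a chemokine receptor of Th17 cells and B cells, was at 74.8, 57.1 and 42.03 CPM in KO libraries and 85.6, 80.4 and 54.3 CPM in WT libraries. Ahr, a ligand-activated transcription factor, was at 70.1, 61.8 and 79.3 CPM in KO libraries and 79.3, 84.01 and 65.5 CPM in WT libraries. The Th17 cytokine genes Il17a and Il22 had 0 counts in all libraries, so neither is among the 5 tested genes. Of the Th1 list, 6 of 13 were tested, with Ifng, the main Th1 cytokine, at 35.6, 30.9 and 55.2 CPM in KO libraries and 42.8, 39.6 and 41.2 CPM in WT libraries. Of the Th2 list, 5 of 14 were tested, with Gata3 at 120.0, 113 and 98.5 CPM in KO libraries and 109, 84.01 and 102 CPM in WT libraries. The cytotoxic list had 9 of 19 tested, and Gzmb, which encodes granzyme B, was at 76.04, 43.98 and 78.05 CPM in KO libraries and 75.5, 58.8 and 55.2 CPM in WT libraries. Median log2 fold changes were 0.0062 for Th1, -0.12 for Th2 and -0.10 for cytotoxic genes, and all 3 changed sign in a leave-one-out fit.

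Genes of naive, memory and follicular helper cells and of homing had medians between 0 and 0.1. In the naive and memory list 13 of 18 tested genes were above 0 and 5 below (median log2 fold change 0.042). Foxp1, a factor that keeps T cells naive, was at 1168, 1190.2 and 1212 CPM in KO libraries, against 1236, 1266 and 1247 CPM in WT libraries, the KO libraries lying below the WT libraries by a small margin (log2 fold change -0.071, SE 0.062). Klf2, which controls exit from lymphoid organs, was at 451, 489 and 469.5 CPM in KO libraries and 401, 420.1 and 480.4 CPM in WT libraries. Tcf7, which encodes TCF-1, was the 1 member of this list higher at an unadjusted p under 0.05, beside 1.85% of all genes. Named for that p and not by level, it was at 80.8, 134 and 122 CPM in KO libraries and 75.5, 82.8 and 103 CPM in WT libraries (log2 fold change 0.36, edgeR unadjusted p = 0.0192, adjusted p = 0.999). Among follicular helper genes 6 of 7 tested were above 0, and Cxcr5, their homing receptor, which B cells also carry, was at 113, 109 and 92.5 CPM in KO libraries and 96.9, 106 and 98.3 CPM in WT libraries. In the homing list Itga4, an integrin chain that binds vascular cells, was at 173, 221 and 213 CPM in KO libraries and 192, 214 and 225 CPM in WT libraries, and 10 of 16 tested genes were above 0 (median 0.013). Of 29 cytokine genes only 7 could be tested (median -0.034), with Ltb, lymphotoxin beta, at 72.5, 108 and 78.05 CPM in KO libraries and 96.9, 79.2 and 103 CPM in WT libraries.

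NF-kappaB target genes had 15 of 20 members below 0 and 5 above, with a median log2 fold change of -0.12. Nfkbia, the inhibitor that the pathway induces against itself, was level at 683, 618 and 651 CPM in KO libraries and 652, 673 and 619 CPM in WT libraries. Rel, the c-Rel subunit, was at 269.7, 218 and 246 CPM in KO libraries and 267, 314 and 232 CPM in WT libraries. Bcl2a1b, a survival factor of the Bcl2 family, was at 156, 131 and 140.5 CPM in KO libraries, against 216, 217 and 129 CPM in WT libraries (log2 fold change -0.37, SE 0.15, edgeR unadjusted p = 0.0197, adjusted p = 0.999). It overlaps a predicted gene and has near-identical copies, so its counts are uncertain. WT 3 lay just below the KO libraries in Bcl2a1b, and without that library the log2 fold change of the gene was -0.61. Leaving out WT 3 enlarges the difference, and the WT libraries that remain count as 1 sample. In the stress and immediate early list 6 of 17 tested genes were above 0 and 11 below, and the heat-shock gene Hsp90aa1 was at 1004, 989 and 1005 CPM in KO libraries and 1034, 1054 and 991 CPM in WT libraries.

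Lists of the cell cycle and metabolism had median log2 fold changes between -0.10 and 0.023. S phase genes had 15 of 29 above 0 and a median of 0.0082, and the replication ligase Lig1 was at 194, 169 and 178 CPM in KO libraries and 164, 158 and 157 CPM in WT libraries. Genes of G2 and M phase had 15 of 27 above 0 and a median of 0.023. Smc4, a condensin subunit, was at 737, 822 and 762 CPM in KO libraries and 606, 639.7 and 769.7 CPM in WT libraries (log2 fold change 0.20, edgeR unadjusted p = 0.0142, adjusted p = 0.999), and Top2a, topoisomerase II alpha, was at 246, 236 and 202 CPM in KO libraries and 239, 216 and 231 CPM in WT libraries. WT 3 again lay with the KO libraries in Smc4. Glycolysis and hypoxia genes had 10 of 25 above 0 and a median of -0.10, with Ldha, lactate dehydrogenase A, at 558, 523 and 579 CPM in KO libraries and 539.8, 491 and 480.4 CPM in WT libraries. Oxidative phosphorylation genes had 9 of 30 above 0 and a median of -0.041, with Atp5b, a subunit of ATP synthase, at 249, 249.8 and 240.2 CPM in KO libraries and 257, 252 and 255 CPM in WT libraries. Sterol and fatty acid genes (median -0.015), amino acid stress and unfolded protein genes (median -0.077) and p53 and apoptosis genes (median -0.025) held 11 of 25, 9 of 30 and 7 of 18 members above 0. In these lists, too, no gene passed the threshold. Atf4, the factor that drives amino acid stress genes, was at 930.3, 748 and 776 CPM in KO libraries and 879, 837 and 716 CPM in WT libraries.

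**Figure D4:**
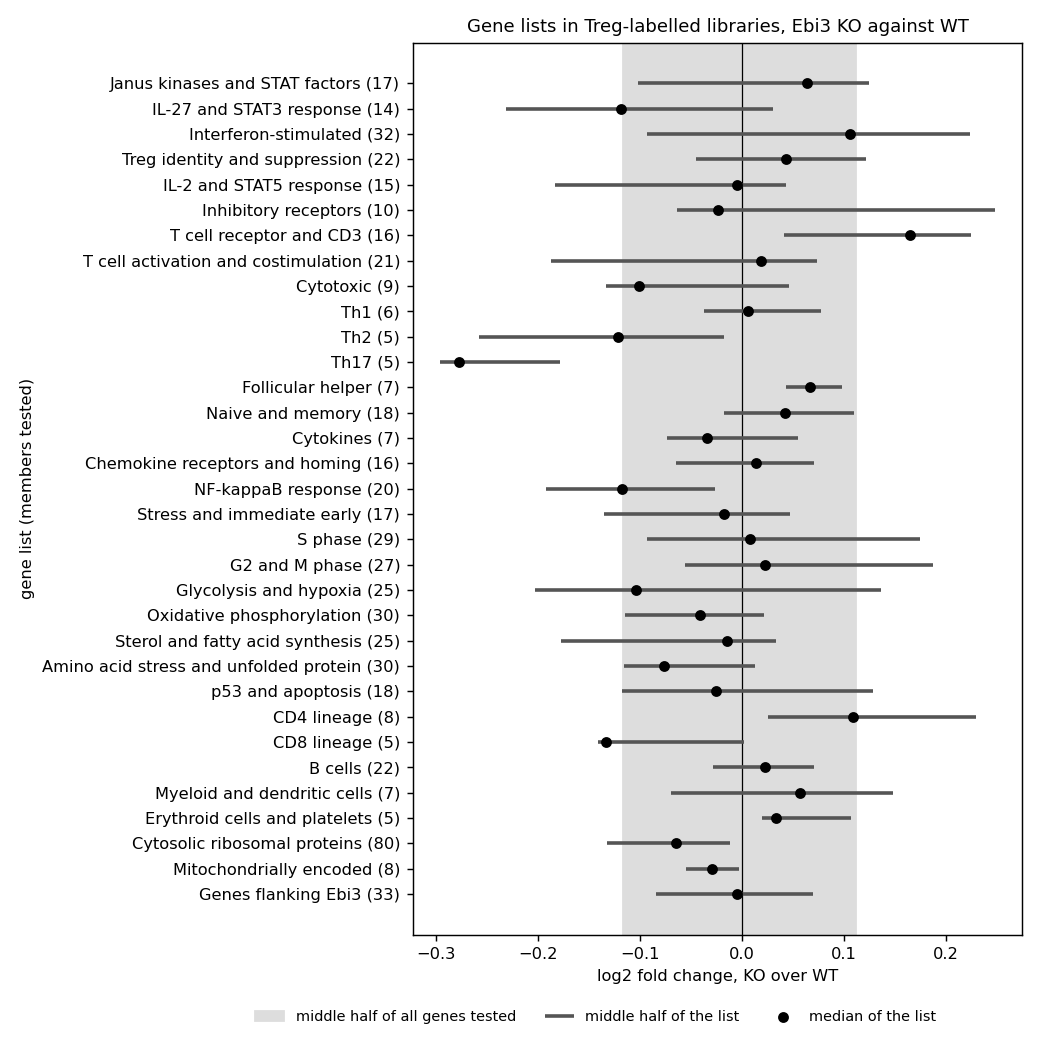
Median (point) and quartiles (line) of the log2 fold change of KO over WT (x axis) for the 33 lists with at least 5 tested genes; the shaded band spans the quartiles of all 9068 genes and brackets hold the number of members tested. The medians lie between -0.28 for Th17 genes and 0.16 for T cell receptor and CD3 genes, and no list holds a gene past the adjusted threshold.

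Ribosomal protein genes leaned one way in most members. Of 80 cytosolic ribosomal protein genes tested, 63 were below 0 and 17 above, with a median log2 fold change of -0.065. At an unadjusted p under 0.05, 17 were lower and 0 higher, beside 2.17% lower among all genes, and 0 passed the adjusted threshold. Genes of this family have many near-identical pseudogene copies, so their counts are uncertain. Their summed level was 115034, 112084 and 112156 CPM in KO libraries and 122043, 122753 and 111107 CPM in WT libraries. Here WT 3 had the lowest sum of all libraries, and WT 1 and WT 2 the highest. Rpl35, a protein of the large subunit, was at 801, 815 and 767 CPM in KO libraries and 1155, 1096 and 773 CPM in WT libraries (log2 fold change -0.33, SE 0.11, edgeR unadjusted p = 0.00734). Rpl37a, also of the large subunit, was at 1673, 1581 and 1452 CPM in KO libraries and 2034, 2075 and 1629 CPM in WT libraries (log2 fold change -0.28, SE 0.074, edgeR unadjusted p = 0.00054). Both were named because they passed the adjusted threshold when all genes with a count were kept. Mitochondrially encoded genes had 2 of 8 above 0 and a median of -0.029, with mt-Nd1, a subunit of complex I, at 7043, 6514 and 6957 CPM in KO libraries and 7109, 7215 and 6596 CPM in WT libraries.

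Markers of other cells gave no gene past the threshold. All 22 B cell genes were tested, with 14 above 0, 8 below and a median log2 fold change of 0.022. Their summed level was 13192, 13644 and 13660.0 CPM in KO libraries and 12647, 13416 and 13618 CPM in WT libraries. Ighm, the heavy chain of IgM, was at 2496, 2665 and 2556 CPM in KO libraries and 2445, 2528 and 2649 CPM in WT libraries, and H2-Aa, an MHC class II chain of antigen-presenting cells, was at 1109.7, 1198 and 1122 CPM in KO libraries and 1014, 1151 and 1198 CPM in WT libraries. In the CD8 lineage list 5 of 9 were tested (median -0.13), and Cd8b1 was at 41.6, 32.8 and 46.8 CPM in KO libraries and 41.5, 45.6 and 44.9 CPM in WT libraries. In the CD4 lineage list 6 of 8 were above 0 (median 0.11), and Zbtb7b, the factor that commits T cells to the CD4 fate, was at 67.7, 60.8 and 62.4 CPM in KO libraries and 64.2, 70.8 and 51.5 CPM in WT libraries. Of 16 genes of erythroid cells and platelets 5 were tested (median 0.033), with the hemoglobin gene Hbb-bs at 549, 533 and 546 CPM in KO libraries and 539.8, 559 and 557 CPM in WT libraries. Of 26 myeloid and dendritic genes 7 were tested, and the defining genes Csf1r, Itgam and Cd68 reached at most 11, 4 and 9 counts in a library. Of 16 stromal and endothelial genes, Apoe and Pecam1 were tested, and Pecam1, an adhesion molecule that lymphocytes also carry, was at 96.2, 121 and 102 CPM in KO libraries, against 89.3, 80.4 and 92.7 CPM in WT libraries (log2 fold change 0.29, edgeR unadjusted p = 0.0295, adjusted p = 0.999). In bulk libraries fewer cells of a type and less RNA per cell cannot be told apart.

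A knockout allele is inherited together with the DNA around it, so the genes within 2 Mb of Ebi3 on chromosome 17 were read as well. Of 111 genes in that window 41 had 0 counts in all libraries and 33 were tested. Of these, 14 were above 0 and 19 below, with a median log2 fold change of -0.0050. At an unadjusted p under 0.05, 1 was higher and 1 lower, beside 1.85% higher and 2.17% lower among all genes. Khsrp, an RNA-binding protein that speeds mRNA decay, was at 143, 132 and 148 CPM in KO libraries and 143, 168 and 137 CPM in WT libraries. Safb, a scaffold attachment factor, was at 198, 149 and 177 CPM in KO libraries and 172, 179 and 162 CPM in WT libraries. Dennd1c, named for its unadjusted p, was at 60.6, 85.2 and 84.1 CPM in KO libraries and 64.2, 48.01 and 64.6 CPM in WT libraries (log2 fold change 0.38, edgeR unadjusted p = 0.0199, adjusted p = 0.999).

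The libraries varied along an axis that did not separate the genotypes but was not balanced between them. The first principal component of the 6 libraries held 26.4% of the variance and ordered them as WT 1, WT 2, KO 1, KO 3, WT 3 and KO 2. WT 1 and WT 2 thus lay at one end and KO 2 at the other, with WT 3 beside KO 2. Xist and the summed Y-linked genes followed this order, Xist downward and the sum upward. Xist, the X-linked RNA that silences an X chromosome in female cells, was at 763, 607 and 684 CPM in KO libraries and 854, 789.7 and 619.9 CPM in WT libraries. Ddx3y, a Y-linked helicase gene, was at 32.1, 72.1 and 50.4 CPM in KO libraries and 32.7, 44.4 and 64.6 CPM in WT libraries. The sum of the Y-linked genes Ddx3y, Kdm5d, Eif2s3y and Uty was 68.9, 125 and 94.9 CPM in KO libraries and 56.6, 64.8 and 108.6 CPM in WT libraries. Xist and Y-linked transcripts were thus both present in every library, at levels that moved against each other, and their part in the genotype contrast was not tested. Cd8a was lowest in KO 2 and WT 3, and the sum of Trac, Trbc1, Trbc2, Cd3d, Cd3e and Cd3g was 927, 1129 and 986 CPM in KO libraries and 868, 767 and 1057 CPM in WT libraries. Within each genotype the library with the most counts, KO 2 and WT 3, stood at the same end.

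**Figure D5:**
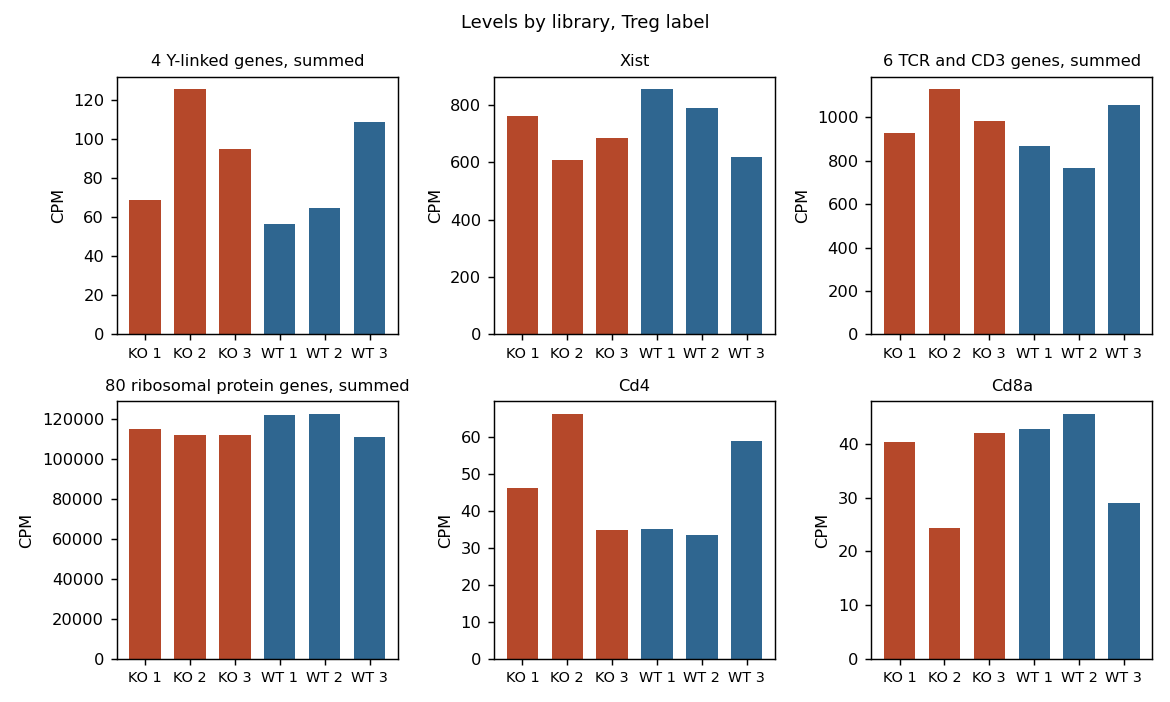
Level in CPM (y axes, from 0) in each library, KO 1 to 3 left of WT 1 to 3, of the summed Y-linked genes, Xist, the summed T cell receptor (TCR) and CD3 genes, the 80 summed ribosomal protein genes, Cd4 and Cd8a. KO 2 and WT 3 share the highest Y-linked, TCR and CD3 and Cd4 levels and the lowest Xist and Cd8a levels of the 6 libraries.

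The result of 0 genes turned on WT 3. Without that library, edgeR called 28 of 9378 genes, 4 higher (0.0427%) and 24 lower (0.256%), and 731 had an unadjusted p under 0.05. Of the 24, 12 were ribosomal protein genes, Rpl35 among them (log2 -0.50, adjusted p = 7.88e-06 by edgeR) and Rps23 (log2 -0.43, adjusted p = 0.00043 by edgeR). WT 3 itself lay within the range of the KO libraries in 20 of the 28 genes, beyond the KO libraries on the side away from the other WT libraries in 5, and between the groups in 3. Since these genes passed with WT 3 removed and not with it, its place near or beyond the KO libraries follows from their choice. The 4 higher genes were Ms4a4b, Smc4, Utrn and the small nucleolar RNA gene Snord89. Ms4a4b, a T cell membrane protein of the CD20-like family, was at 372, 453 and 396 CPM in KO libraries, against 242, 305 and 437 CPM in WT libraries (log2 0.58, adjusted p = 0.00189 by edgeR without WT 3). Utrn, which encodes utrophin, was at 206, 252 and 256 CPM in KO libraries, against 175, 168 and 239 CPM in WT libraries. In both, WT 3 lay among or above the KO libraries while WT 1 and WT 2 lay below them. On the lower side Samsn1, an adaptor that dampens B cell signals, was at 169.9, 146 and 151 CPM in KO libraries, against 225, 228 and 163 CPM in WT libraries (log2 -0.55, adjusted p = 0.00841 by edgeR without WT 3). Hspe1, a mitochondrial chaperonin, and Nars, which charges asparagine tRNA, were also lower in that fit, as was Ndufa1, a subunit of complex I, and the host gene Gas5. These genes are named because they passed in that fit.

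The fit without WT 3 compares 3 KO libraries with WT 1 and WT 2, which differed by less than sampling noise and count as 1 sample. Other tools on the same 5 libraries called 3 genes (DESeq2) and 33 (limma-voom), and edgeR with the pairs at sampling noise summed called 9. Of the 33 and the 9, 27 and 9 were among the 28. With the closest pair across the labels, KO 2 and WT 3, left out together, edgeR called 19 genes, 1 higher and 18 lower, of which 17 were among the 28 and 13 were ribosomal protein genes. These further fits were chosen after seeing the data. The fit without KO 2 and WT 3 leaves KO 1 with KO 3 and WT 1 with WT 2, each of which counts as 1 sample, and removes the libraries that were most alike across the labels, which favours a separation of the groups. In the fit with summed pairs the WT arm is a single sample, and its spread is taken from the KO libraries alone. None of these further fits is a check of the genes called without WT 3, since DESeq2 and limma-voom used the same 5 libraries. The ribosomal list without WT 3 had 66 of 80 genes below 0 and a median log2 fold change of -0.11, and the interferon-stimulated list had 25 of 32 above 0 and a median of 0.28. By their summed levels WT 3 stood nearer to the KO libraries than WT 1 and WT 2 did in both lists.

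Whether the effect of genotype differed under the Treg label from that under the CD4 and CD8 labels was tested in 1 fit to all 18 libraries, over 12693 genes. For Treg minus CD4, 0 genes passed the adjusted threshold (0%) and 550 had an unadjusted p under 0.05 (4.33%). For Treg minus CD8, 0 passed (0%) and 954 had an unadjusted p under 0.05 (7.52%). Of the genes tested, 5% is 635. Within the labels, this fit called 0 genes under the Treg label (0%), 0 under CD4 (0%) and 21 under CD8 (0.165%), with 274 (2.16%), 929 (7.32%) and 2071 (16.3%) at an unadjusted p under 0.05 in that order. The median absolute log2 fold change over the 3425 genes with a mean log2 CPM of at least 6 was 0.0757 under the Treg label, 0.109 under CD4 and 0.144 under CD8. Depth also differed between the labels, and these medians were not tested against each other. Ebi3 had a log2 fold change of -0.20 under the Treg label and -0.98 under CD4 in this fit (for CD4, SE 0.19, edgeR unadjusted p = 9.98e-06, adjusted p = 0.127). The difference, Treg minus CD4, was 0.78 for Ebi3 (SE 0.31, edgeR unadjusted p = 0.0158, adjusted p = 0.988). Under CD8 the log2 fold change of Ebi3 was -0.011, and Treg minus CD8 was -0.18 (SE 0.31, edgeR unadjusted p = 0.556, adjusted p = 0.922). The gene of lowest p for Treg minus CD8 was Irf2bp2, named above by its own rule, with log2 fold changes of -0.40 under the Treg label and 0.50 under CD8 (edgeR unadjusted p = 0.000124, adjusted p = 0.312). The count for Treg minus CD8 depended on the processing, with 46 genes when no filter on low counts was used, 1 with the replicate block and 1, Ppp1r14b, in a fit to the 12 libraries compared.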

How the data were processed

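Activated mouse spleen cells labelled Treg were profiled in 6 libraries, 3 per genotype. The table the authors deposited holds raw counts, without normalisation, for 55487 Ensembl genes in 18 columns, of which 0 stayed unused. The submitters' processing notes name STAR 2.5.3a, UMI-tools 1.0.0, Subread 2.0.0, featureCounts, cutadapt 2.10 and FastQC, and the build GRCm38 (mm10). They state no settings, and the strand setting and the handling of reads with several alignments are unknown here. Overlapping genes and near-identical copies are therefore uncertain. Gene names came from a GRCm38 annotation that matched 55227 genes.

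The analysis used edgeR 4.0.16 in R 4.3.3. Genes passed filterByExpr with a minimum count of 10, were scaled by TMM, fitted with glmQLFit (robust) on genotype alone and tested with glmQLFTest, with Benjamini-Hochberg adjustment over all genes tested and a threshold of 0.05. For a single value, the smallest exact permutation p that 3 libraries against 3 allow is 0.1. Differences between cell labels were tested as contrasts in a fit to all 18 libraries. DESeq2 1.42.0 and limma 3.58.1, other scalings and filters, a replicate block and each library left out were alternatives. The scripts were tested on simulated data.

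The genes named are, by rule, Ebi3, Foxp3, Il2ra, Cd4, Cd8a, Cd8b1 and Zbtb7b, the 12 of lowest p in each direction with separated libraries and a mean log2 CPM of at least 4 (without predicted, ribosomal protein and mitochondrial genes), and members of each list by level. A few genes that this rule picks are not reported here. Others are marked as chosen after their values were seen or named for their p. The comparison, the lists and the rule were chosen with earlier results of these data known.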

Additional observations from a re-analysis of the deposited data

How the results depend on the processing

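Genes past the threshold numbered 0 in both directions under RLE and upper quartile scaling, a minimum count of 30, DESeq2, limma-voom, a fit without robust weights, the fit to all 18 libraries, summed library pairs and the replicate block, and without each library other than WT 3. Exceptions follow. With all genes with a count kept, 2 were lower, Rpl35 and Rpl37a. Over the fits with a library left out the counts ran between 0 and 4 higher and between 0 and 24 lower, the highest without WT 3. Without KO 2 and WT 3, which leaves 1 distinct sample a group, there were 1 higher and 18 lower. With WT 3 left out, DESeq2 gave 3 lower, limma-voom 3 higher and 30 lower, and summed pairs 1 higher and 8 lower. For Treg minus CD8, 46 genes passed with no filter on low counts, 1 with the replicate block and 1 in a fit to the 12 libraries compared (Ppp1r14b), and for Treg minus CD4 none passed in any of these.

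The replicate block left 0 genes past the threshold between KO and WT (388 at an unadjusted p under 0.05, lowest adjusted p = 0.225 by edgeR). Libraries of the same number correlated at 0.105, -0.0522 and -0.0125 in their deviations, below that of KO 2 with WT 3 at 0.165, so the numbers were not taken as a pairing. No fold change of the 24 genes chosen by lowest p changed sign in the alternatives checked, which the choice of separated genes favours. The DESeq2, limma-voom and summed-pair fits without WT 3 were not checked for these genes. Of 33 list medians 18 changed sign with some library left out. At 20 to 42 counts, Ebi3 is limited by depth, as are most cytokine and Treg marker genes.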

Other observations

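Some genes outside the lists have large loadings on the first principal component. Among the 20 genes of largest loading at its end with KO 2 and WT 3, Cd9, a tetraspanin of B cells and other lymphocytes, stood at 35.6, 70.2 and 55.2 CPM in KO libraries and 30.2, 30.004 and 51.5 CPM in WT libraries. Cd96, a receptor of T and NK cells, stood at 22.6, 28.1 and 27.6 CPM in KO libraries and 7.55, 18.002 and 29.03 CPM in WT libraries. At the other end, Fndc3b stood at 21.4, 6.55 and 12.01 CPM in KO libraries and 30.2, 15.6 and 8.43 CPM in WT libraries. These genes define the component, so their levels are a description. The share of counts in mitochondrially encoded genes was 7.53%, 6.77% and 7.56% in KO libraries and 7.58%, 7.59% and 7.002% in WT libraries, lowest in KO 2 and WT 3, the libraries of highest total count.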
